A study of Mus musculus with 2 samples.

Results

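Creatine kinases are the enzymes that move the high-energy phosphate group between ATP and creatine, and this account covers their genes in hearts of mice with an altered cardiac myosin binding protein-C. The members are 6 of the 25004 genes in the deposited count tables: the muscle gene Ckm, the mitochondrial genes Ckmt2 and Ckmt1, the brain-type gene Ckb, the creatine transporter gene Slc6a8, and A930016O22Rik, the non-coding gene annotated on the strand opposite Ckm. They were chosen by gene name and function with the summed counts of both libraries already known, so those counts and ratios are descriptions. Poly-A selected RNA was sequenced in 1 library of transgenic hearts, from mice with the cMyBP-C delta C0-C1f transgene, whose label names a loss of C0-C1f, and in 1 library of non-transgenic control hearts. Both groups were 12 weeks old of the FvB/N strain, and each library was a pool of 3 whole hearts. The sources used here do not name the promoter of the transgene or how many transgenic lines were used. With 1 library per group no difference has a replicate check, no p-value was computed, and every interval below covers counting error only.

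In heart muscle, mitochondrial creatine kinase sits between the inner and outer mitochondrial membranes and uses newly exported ATP to charge creatine. Phosphocreatine then diffuses to the myofibrils and ion pumps, where the muscle isozyme turns ADP back into ATP. Creatine itself is made largely outside the heart, by the products of Gatm and Gamt, and enters the cardiomyocyte through the transporter encoded by Slc6a8.

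The transcript model of A930016O22Rik that received all of the gene's counts, NR_073014, has 4 exons on the minus strand of chromosome 7 and overlaps 3 of the 8 exons of Ckm (chromosome 7, 19411094 to 19421583, plus strand, GRCm38). Most of its exon bases are also part of the second model of the gene, NR_073015. The bases of NR_073014 that no other counted model holds on that strand are shown here because they set this model apart from its partner. They lie in exon 3 at chr7:19420058-19420232 and exon 2 at chr7:19420419-19420454, and the sequence is the minus strand, 5′ to 3′, from the GENCODE M21 transcript on GRCm38. Capitals mark bases that are complementary to exon 7 of Ckm, all of them protein-coding in Ckm.
A930016O22Rik exon 3: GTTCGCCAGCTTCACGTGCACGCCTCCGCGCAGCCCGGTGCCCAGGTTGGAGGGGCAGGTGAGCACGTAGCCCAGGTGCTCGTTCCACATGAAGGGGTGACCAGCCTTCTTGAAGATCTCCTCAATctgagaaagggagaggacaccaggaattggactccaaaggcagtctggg
A930016O22Rik exon 2: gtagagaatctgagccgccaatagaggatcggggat

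A930016O22Rik was counted far above Ckm. The transgenic library gave it 6993 counts and the non-transgenic library 7272, rank 2 of all genes in each. Ckm had 396 counts in the transgenic and 342 in the non-transgenic library, at ranks 70 and 77. Of the counts on the pair, 94.6% fell on A930016O22Rik in the transgenic library (exact Clopper-Pearson 95% interval 94.1 to 95.1). In the non-transgenic library the share was 95.5% (95.02 to 96.0). These intervals overlapped, which does not show that the shares were equal, and the difference was not tested. Per kb of exon, A930016O22Rik had 5760.3 counts against 279.9 for Ckm in the transgenic library, and 5990.1 against 242 in the non-transgenic library. The sources used here do not state the strand setting of the counting, so which gene of the pair the reads came from cannot be told apart from these counts, and the value of each is uncertain.

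The counts of the antisense gene were all on the model whose unshared bases face a Ckm exon. NR_073014 has 1214 exon bases, of which 451 lie opposite Ckm exons 6, 7 and 8 and 211 are unshared, and 126 of the unshared bases lie opposite exon 7. NR_073015 has 1346 unshared bases, none of them opposite a Ckm exon, and it had 0 counts in both libraries. Ckm has 1 counted model with 1415 exon bases, all unshared on its own strand. What set the counts of the models apart was not tested.

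**Figure D1:**
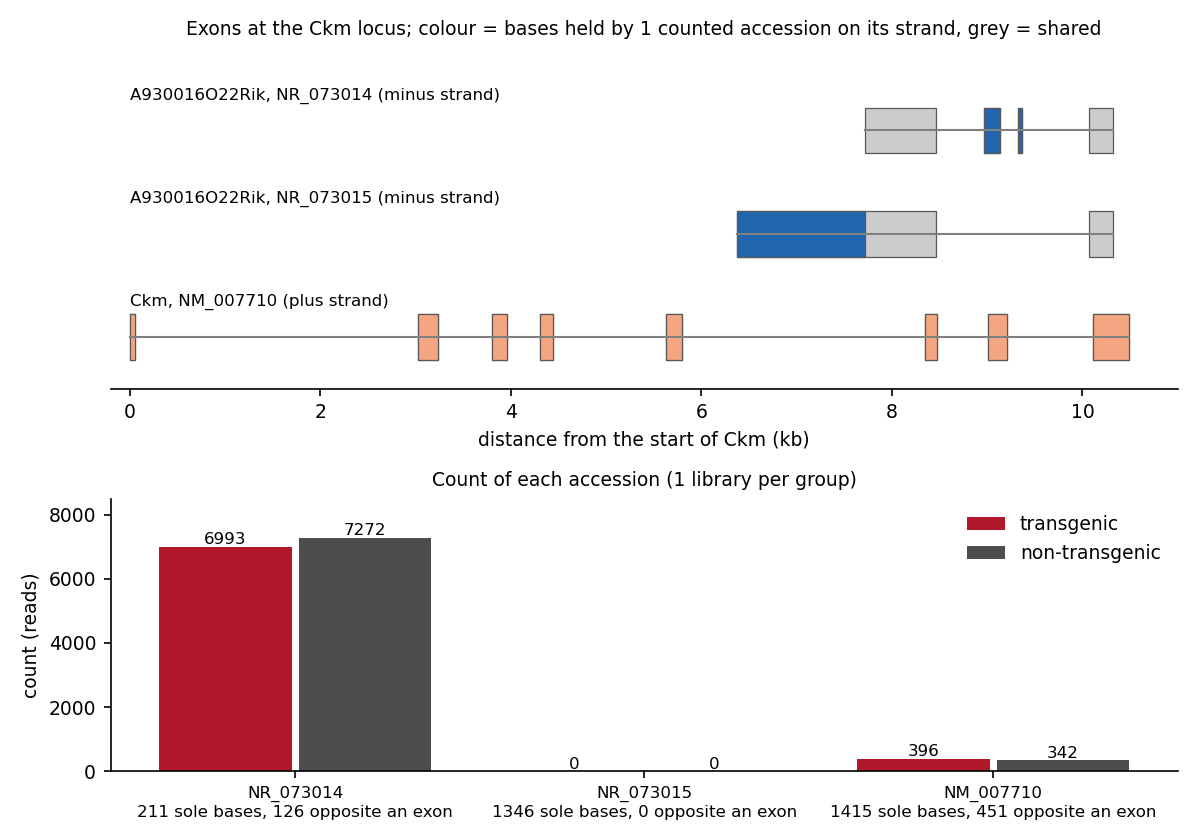
Upper panel: exons of the 2 models of A930016O22Rik and of Ckm against distance from the start of Ckm in kb, with bases held by a single counted model on its strand in colour and shared bases in grey. Lower panel: count of each model in the transgenic and the non-transgenic library. NR_073014, with 211 unshared bases, had 6993 and 7272 counts, and NR_073015, with 1346, had 0 in both.

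Other models whose unshared bases mostly face an exon also had high mean counts. Among 35347 accessions matched to a GENCODE transcript, 181 had at least 100 unshared bases with at least 50% of them opposite an exon of another counted gene. Of these, 53.6% had a count in at least 1 library, with means of 82.1 counts in the transgenic and 90.5 in the non-transgenic library. Without NR_073014 itself 53.3% of 180 had a count and the means were 43.8 and 50.6, which a few highly counted models could set. The 21794 accessions with as many unshared bases but none opposite an exon had a count in 30.5% of cases and means of 3.73 and 2.88. In the wider class of genes that share any exon base with an opposite gene, 3 of the most counted pairs divided their counts as follows. Map3k15 had 12037 counts against 186 for the pyruvate dehydrogenase gene Pdha1 in the transgenic library, and 11983 against 121 in the non-transgenic library. Prpf39 held 94.8% of the counts on itself and Fkbp3 in the transgenic and 97.1% in the non-transgenic library. Myl2, the ventricular myosin light chain gene, overlaps Ccdc63 by 60 exon bases and held all 3916 counts of that pair in the transgenic library and 2405 of its counts in the non-transgenic library, where Ccdc63 had 1.

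Between the libraries, A930016O22Rik was counted lower in transgenic hearts, by less than the 1.5-fold used here as the size of a call. Its normalised level was 34565 CPM (counts scaled to a common library size) in the transgenic and 45208 CPM in the non-transgenic library, a ratio of 0.765 (95% counting interval 0.740 to 0.790). The log2 ratio of -0.39 compares with a median of -0.26 over 781 genes that have at least 30 counts and an exon on the opposite strand, and with -0.10 over all 1349 genes with at least 30 counts. Of those 1349 genes, 29.3% had a lower log2 ratio than A930016O22Rik.

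Ckm, the cytosolic muscle isozyme that is bound in part to the M-band of the sarcomere, differed by less than its counting error. Its level was 1957 CPM in the transgenic and 2126 CPM in the non-transgenic library, a ratio of 0.921 (0.795 to 1.07). The sign of its log2 ratio, -0.12, turned to 0.05 when libraries were scaled by total counts alone. Ckm and A930016O22Rik summed as 1 locus had 7389 counts in the transgenic and 7614 in the non-transgenic library, a ratio of 0.772 (0.747 to 0.797) that is set almost wholly by the antisense gene.

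Ckmt2, the sarcomeric mitochondrial isozyme, was counted higher in transgenic hearts by less than 1.5-fold. It had 432 counts in the transgenic and 294 in the non-transgenic library, or 2135 and 1828 CPM, and lies on chromosome 13 (91853387 to 91876885, minus strand), where its counted model faces no exon of another counted gene. An antisense gene outside the count tables, 1700119I11Rik, shares 84 exon bases with the gene. The ratio was 1.17 (1.01 to 1.36), and the lower end of the interval fell to 0.983 with upper-quartile scaling. Its log2 ratio was 0.22. Over 234 genes with at least 30 counts and no opposite-strand exon within 5 kb, the median was 0.185. Over 781 genes with at least 30 counts and exon overlap with an opposite-strand gene, as Ckmt2 has with 1700119I11Rik, it was -0.26. On its strand the isozyme's 1486 exon bases belong to a single counted model.

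Counted as its own gene, Ckm was at nearly the same level as Ckmt2. That near equality rests on leaving out A930016O22Rik. With its counts added to Ckm, Ckm held 94.4% and Ckmt2 5.52% of the creatine kinase counts in the transgenic library. In the non-transgenic library they held 96.2% and 3.72%. No opposite-strand counts could be added to Ckmt2, because 1700119I11Rik is outside the count tables, so these shares compare unlike sums. Without A930016O22Rik, Ckmt2 held 51.9% of the counts on the 4 kinase genes in the transgenic library (48.4 to 55.3) and 46.0% in the non-transgenic library (42.1 to 49.96). Ckm then held 47.5% (44.1 to 51.0) and 53.5% (49.6 to 57.4). Set against Ckm alone, the share of Ckmt2 was 52.2% in the transgenic (48.7 to 55.6) and 46.2% in the non-transgenic library (42.3 to 50.2). Both intervals held 50%, so the order of their counts was not resolved in either library. The intervals of the libraries overlapped, which does not show that the shares were equal, and the difference was not tested. Per kb of exon, Ckmt2 had 291 and Ckm 279.9 counts in the transgenic library, and 198 and 242 in the non-transgenic library. The 4 kinase genes together had 833 counts in the transgenic and 639 in the non-transgenic library, a ratio of 1.04 (0.934 to 1.15).

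**Figure D2:**
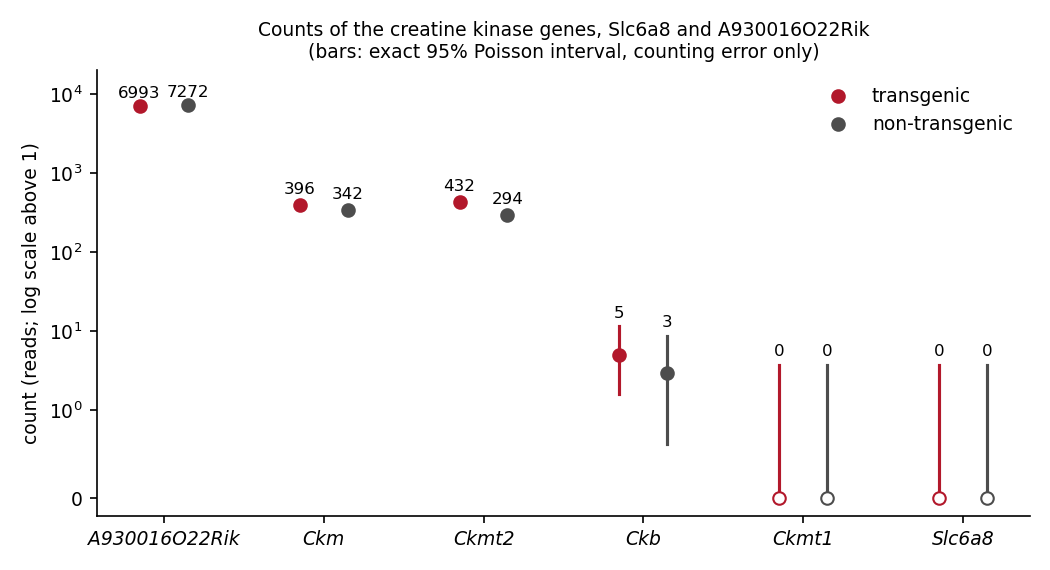
Count of each gene in the transgenic library (left point, red) and the non-transgenic library (right point, grey), on an axis that is logarithmic above 1; bars are exact 95% Poisson intervals. A930016O22Rik lies at 6993 and 7272, Ckm and Ckmt2 between 294 and 432, Ckb at 5 and 3, and Ckmt1 and Slc6a8 at 0.

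Ckb, the cytosolic isozyme of brain and smooth muscle, was barely counted. It had 5 counts in the transgenic and 3 in the non-transgenic library, and the ratio of 1.33 had an interval from 0.258 to 8.53, so no difference was detectable at this depth. Its share of the creatine kinase counts was 0.6002% in the transgenic (0.195 to 1.40) and 0.469% in the non-transgenic library (0.0969 to 1.37). Reads of Ckb may be split with or lost to its pseudogenes Ckb-ps1 and Ckb-ps2, both annotated on chromosome 17. This was not tested, and it leaves the count of Ckb uncertain. No other gene shares an exon base with it on the opposite strand (chromosome 12, 111669361 to 111672338, minus strand).

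Ckmt1, the ubiquitous mitochondrial isozyme, and Slc6a8 had 0 counts in both libraries. With 3 counts taken as the limit that a count of 0 allows, their level could be up to 14.8 CPM in the transgenic and 18.7 CPM in the non-transgenic library, and for Ckmt1 a share of up to 0.360% and 0.469% of the creatine kinase counts. The exact 2-sided 95% interval used for the other genes reaches further, to 3.69 counts, and for Ckmt1 to 0.442% of the creatine kinase counts in the transgenic and 0.576% in the non-transgenic library. These limits cover counting error only, not how reads shared between models were treated. Both genes have several counted models that share most of their exons. The 2 models of Ckmt1 have 1518 and 1620 exon bases, of which 84 and 186 are unshared, and 10 bases of each lie opposite an exon of Strc. Of the 3 models of Slc6a8, on the X chromosome, 2 have no unshared base and the third has 650 of 3964. Over the whole table, 1.34% of 7180 accessions without an unshared base and 2.79% of 4546 with fewer than 100 had a count, against 33.2% of 23621 with at least 100. A gene with more than 1 accession had no count in either library in 85.1% of cases, and a gene with 1 accession in 58.9%. The zeros of Ckmt1 and Slc6a8 do not show absence of their RNA.

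None of the 4 members with a ratio was called, where a call means at least 1.5-fold with the counting interval on the same side of 1. Over all 4236 genes with a ratio, 9.32% were called, 3.42% higher and 5.90% lower in the transgenic library. At 2-fold, 6.19% of all genes were called, 2.48% higher and 3.71% lower, and again no member. The higher calls were 36.7% of all calls, and this share became 54.1% under DESeq2 scaling and 62.2% under total counts. Those scalings put the median log2 ratio of all genes at 0.16 and 0.22, against 0.05 under TMM. Under each of these scalings A930016O22Rik kept a ratio below 1 and Ckmt2 and Ckb kept a ratio above 1, and no member was called.

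**Figure D3:**
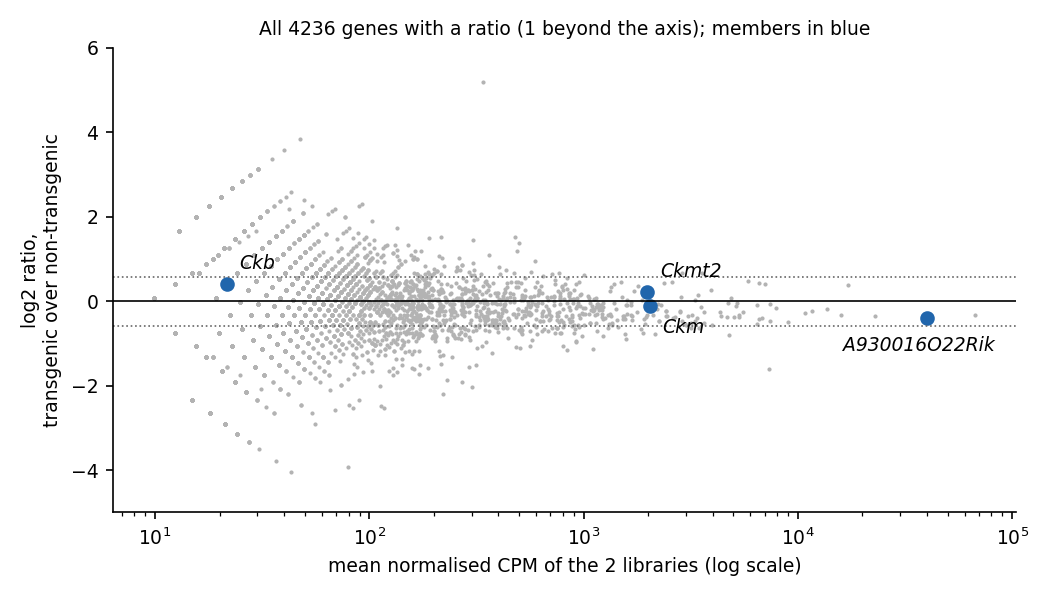
Log2 of the transgenic over non-transgenic ratio against the mean CPM of both libraries on a log axis, for the 4236 genes with a ratio (grey) and the 4 members that have one (blue). Dotted lines mark 1.5-fold. The members lie between log2 ratios of -0.39 and 0.41, inside the dotted lines.

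The genes most like each member were taken as those nearest in log2 mean CPM and log2 ratio, a likeness over 2 libraries only. Nearest to Ckm was Mybpc3, the gene of the protein that the transgene encodes, with 398 counts in the transgenic and 344 in the non-transgenic library, followed by the histone demethylase gene Kdm1b with 386 and 334. Nearest to Ckmt2 were Cand2, with 409 and 253 counts, and Kri1, with 375 and 254. A930016O22Rik had no close neighbour, and the nearest was Map3k15. Ckb shared its counts of 5 and 3 exactly with 62 other genes.

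Promoter sequence is shown for the isozymes with counts, whose windows differ in the E-box and TATA-like letters they hold. Each runs from 250 bases before to 50 bases after the RefSeq transcript start on GRCm38.p6, 5′ to 3′ on the gene's strand, with capitals for the E-box CANNTG, which muscle regulatory factors bind, and for a TATA-like element TATANA, each searched on both strands.
Ckm, chr7:19410844-19411143, plus strand: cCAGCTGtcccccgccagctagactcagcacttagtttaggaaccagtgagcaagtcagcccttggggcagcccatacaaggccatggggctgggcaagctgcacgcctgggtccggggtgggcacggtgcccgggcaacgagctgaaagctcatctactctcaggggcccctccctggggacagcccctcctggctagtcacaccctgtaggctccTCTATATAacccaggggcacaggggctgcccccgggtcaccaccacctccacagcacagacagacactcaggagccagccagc
Ckmt2, chr13:91876836-91877135, minus strand: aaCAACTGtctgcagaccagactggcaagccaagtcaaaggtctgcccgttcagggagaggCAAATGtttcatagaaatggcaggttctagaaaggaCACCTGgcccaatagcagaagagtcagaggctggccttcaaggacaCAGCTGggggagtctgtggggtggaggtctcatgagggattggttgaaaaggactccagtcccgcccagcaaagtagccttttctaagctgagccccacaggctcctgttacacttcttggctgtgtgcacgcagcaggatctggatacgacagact
Ckb, chr12:111672289-111672588, minus strand: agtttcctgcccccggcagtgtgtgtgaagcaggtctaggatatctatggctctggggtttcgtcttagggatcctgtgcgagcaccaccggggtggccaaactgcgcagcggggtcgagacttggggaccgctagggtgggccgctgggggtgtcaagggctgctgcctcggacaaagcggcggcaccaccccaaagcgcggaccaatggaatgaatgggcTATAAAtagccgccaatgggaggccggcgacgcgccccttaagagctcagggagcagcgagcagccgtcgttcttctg

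Within these windows Ckmt2 held 4 E-boxes and no TATANA match, Ckm held 1 E-box and 2 overlapping TATANA matches starting at -33 and -31, and Ckb held no E-box and 1 TATANA match at -28. An E-box was present in 72.3% and TATANA in 24.7% of 32851 promoter windows of the same length. The Ckb element also lies within a match to the MEF2 consensus, which 3.19% of windows held, and neither Ckm nor Ckmt2 had one here. A match is a run of letters and not a measured site. A promoter sequence was found for 5 of the 6 members, with Slc6a8 the exception.

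Around the kinases, the genes of the mitochondrial ADP/ATP carriers, Slc25a4 and Slc25a5, were counted higher in transgenic hearts, Slc25a5 on few counts. Most other genes of phosphate transfer were not called, several of them with too few counts to resolve a difference. Of 59 further genes on the pathway lists, 58 were in the tables, 34 had a count and 22 had a ratio. Of the 22, 3 were at least 1.5-fold higher, none was lower and 19 were neither, beside 3.42% higher and 5.90% lower among all genes with a ratio. Their median log2 ratio was 0.12, against 0.05 for all genes with a ratio. All 3 belonged to the list of ATP export and phosphate import, of which 4 of 6 genes had a ratio. The lists were chosen with earlier results of these data known, so these numbers describe and do not test. All 3 had at least 30 counts over both libraries, and of the 1349 such genes 84 were called higher and 163 lower. Of the listed genes with several accessions, 20 of 30 had no count, against 4 of 28 with 1 accession.

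Slc25a4, the main ADP/ATP carrier of heart mitochondria, had 889 counts in the transgenic and 444 in the non-transgenic library, a ratio of 1.59 (1.42 to 1.79). Its log2 ratio was 0.67. Over 234 genes that, like Slc25a4, have at least 30 counts and no opposite-strand exon within 5 kb, the median was 0.185. Slc25a5 encodes another carrier of the same kind. With 30 and 5 counts its ratio was 4.77 (1.83 to 15.7). Vdac2, a channel of the outer mitochondrial membrane, gave 51 and 24, hence 1.69 (1.02 to 2.87), and its call was lost with upper-quartile scaling. The phosphate carrier gene Slc25a3 gave 153 and 112, hence 1.09 (0.846 to 1.40), and was not called. Slc25a4 thus had 2.06 counts per count of Ckmt2 in the transgenic library and 1.51 in the non-transgenic library. Vdac1 and Vdac3 had 0 counts in both.

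Genes that anchor or use creatine kinase were not called. The M-band protein gene Myom2, of the family that binds the muscle isozyme, had 220 counts in the transgenic and 165 in the non-transgenic library, a ratio of 1.06 (0.862 to 1.31), and Fhl2, an anchor for metabolic enzymes, had 14 and 15. Among the 7 ATPase genes on the list, none of 6 with a ratio was called. Of the nucleotide kinases 5 of 16 in the tables had a ratio and none was called. The most counted were Nme1, with 20 counts in each library, and Nme2, with 6 and 9. The adenylate kinase genes Ak1 and Ak3 had 0 counts in both libraries. Of the genes that sense or remove AMP, the kinase subunit gene Prkag1 had 13 counts in each library and Prkab1 had 5 and 2, without a call. The transcription regulator genes Esrra, with 21 and 12 counts, and Srf, with 9 and 4, were not called either. The ratio of Srf was 1.79 (0.499 to 7.95) and that of Prkab1 was 1.99 (0.325 to 20.9), so neither difference was resolved. For creatine supply, Gatm had 1 count in the transgenic and 0 in the non-transgenic library, Slc16a12 had 1 in each and Gamt had none.

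**Figure D4:**
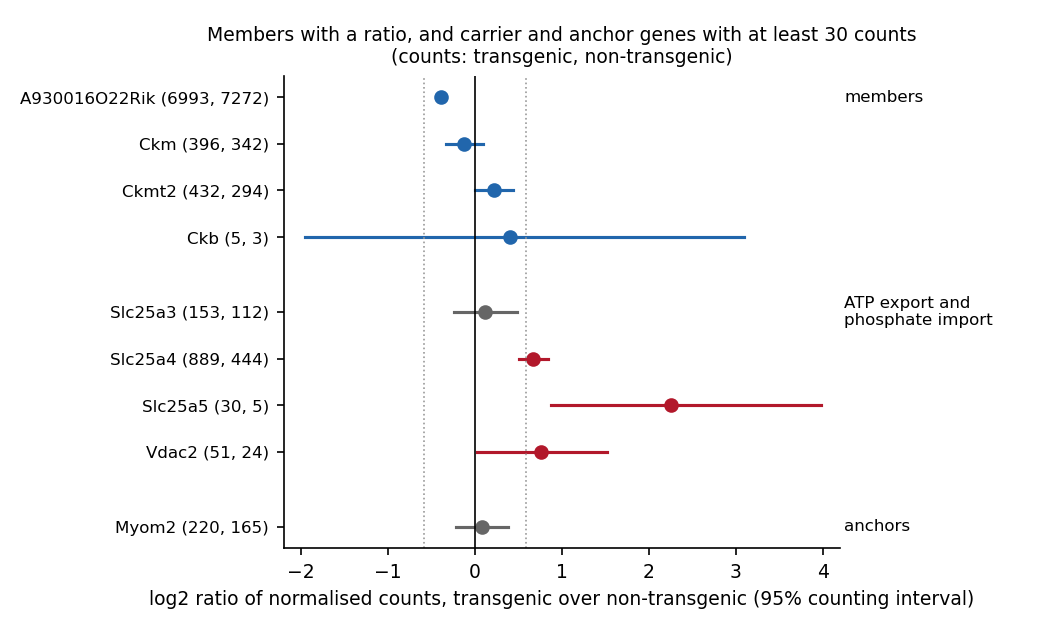
Log2 ratio, transgenic over non-transgenic, with its 95% counting interval for the 4 members with a ratio (blue) and for the 5 mitochondrial carrier, channel and anchor genes with at least 30 counts (grey, or red where called higher); dotted lines mark 1.5-fold and the counts of both libraries stand beside each name. Slc25a4, Slc25a5 and Vdac2 lie beyond 1.5-fold on the higher side.

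The libraries held 190824 counts in the transgenic and 170543 in the non-transgenic group, in which 7081 and 6725 genes had a count. Of 12 cardiomyocyte markers 9 had a count, and their summed level was 38183 CPM in the transgenic and 28547 CPM in the non-transgenic library, carried mostly by Myl2, Actc1, Tnni3 and Tnnc1, with Myl3, Myl7 and Tnnt2 at 0. Myh6 had 1 and 0 counts, Pln 1 and 2, and Mb 0 and 1. Tnnc1 was called higher, with 712 and 357 counts. Ttn, with 11 and 9 counts, had a ratio of 0.972 (0.366 to 2.65), and Ryr2, with 185 and 129, 1.14 (0.906 to 1.44). The ATP carrier counts moved in the same direction as Myl2, Actc1, Tnni3 and Tnnc1. The part of cell make-up in that difference was not tested. In a whole-heart library, fewer cells of a type and less RNA per cell cannot be told apart. Skeletal muscle markers, of a tissue also rich in Ckm, had 7 counts in the transgenic and 14 in the non-transgenic library over 13 genes. The fast myosin genes Myh1, Myh2 and Myh4 were at 0. These counts do not show that such tissue was absent, since the heart markers Myl3 and Tnnt2 were also at 0. Of other lists, summed levels were 193 and 218 CPM for smooth muscle, 188 and 311 CPM for fibroblasts (the collagen gene Col3a1, with 14 and 23 counts, was called lower, a call lost under DESeq2 scaling and under total counts), 346 and 429 CPM for endothelium, 98.9 and 87.0 CPM for blood and immune cells and 934 and 957 CPM for adipocytes, nearly all of the last from Fabp4. The 5 nerve and glia markers had no count.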

How the data were processed

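The deposited files hold raw counts of reads per RefSeq transcript accession, in 1 file per library and with no header. Per the labels' protocols, mRNA was selected on poly-T beads and prepared with a kit that keeps strand origin, while STAR, HTSeq and mm10 appear in the submitters' processing notes without versions or a strand setting. How reads overlapping several transcripts were treated is not stated there. Of 41449 accessions, 41252 were named from a RefSeq table, 99 from GENCODE M21 and 98 remained unnamed; counts were summed per gene. Exon positions are those of the GENCODE transcript matched to each accession, cut to the RefSeq gene span.

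Library sizes (190824 and 170543 counts) were scaled with TMM factors of 1.06 and 0.943 (edgeR 4.0.16, R 4.3.3). A single library on each side leaves no spread to estimate, so no model was fitted and no test was made. A ratio needed over 3 counts in at least 1 library; its interval is Clopper-Pearson at 95% from scipy 1.17.1, and a count of 0 was set to a floor of 3. The calculation was tested on simulated counts drawn with counting error only. That test does not bear on spread between hearts or on strand assignment. Other scalings tried were upper quartile, total counts and DESeq2 1.42.0; further alternatives were the most counted accession, other thresholds and per-kb values. The genes named were all members, the called or 2 most counted genes of each list, genes within 50 kb, the 2 nearest in level and ratio, and the 5 most counted opposite-strand genes; other list genes named for a count of 0 or as markers were chosen after their values were seen. Members and lists were chosen with earlier results of these data known. Some genes that these rules select are not reported here. No sample column was left unused.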

Additional observations from a re-analysis of the deposited data

How the results depend on the processing

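The ratio of A930016O22Rik became 0.824 under DESeq2 scaling and 0.859 under total counts, outside its counting interval of 0.740 to 0.790 but below 1 in both. That of Ckm became 0.772 when both genes were summed as 1 locus. The share of the pair's counts on A930016O22Rik, per kb of exon, was 95.4% in the transgenic and 96.1% in the non-transgenic library. With A930016O22Rik added to Ckm, the creatine kinase counts in the transgenic library fell 94.4% to Ckm, 5.52% to Ckmt2 and 0.0639% to Ckb. In the non-transgenic library the shares were 96.2%, 3.72% and 0.0379%. Counts of the gene opposite Ckmt2 could not be added, because that gene is outside the count tables. Of all genes with a ratio, 395 were called, against 262 at 2-fold, 178 with 99% intervals and 247 among genes with at least 30 counts; no member was called in any of these. The other 37 alternative values run stayed within the counting interval, or within 1.5 times for counts of genes. No paired analysis was possible because each group has 1 library, and for the same reason no library could be left out. At 1 count per 4.94 and 6.22 CPM, a difference in genes of a few counts was not detectable.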

Other observations

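The surroundings of the members were thinly counted. Within 50 kb of Ckm and A930016O22Rik, the kinase gene Mark4 had 2 counts in the transgenic and 1 in the non-transgenic library, Ppp1r13l had 3 and 2, and Klc3, Ercc2 and Mir343 had none. Around Ckmt2, Rasgrf2 had 5 and 4 counts and Zcchc9 had 2 and 4. Around Ckb, Bag5 had 1 count in the transgenic and 0 in the non-transgenic library, and Trmt61a and Mark3 had none. Near Ckmt1, which had no count, Ppip5k1 on the opposite strand had 19 and 8, and Catsper2 had 1 in each. Near Slc6a8, also without a count, Bcap31 on the opposite strand had 29 and 41 counts.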
